A study of Rattus norvegicus with 3 samples.

Results

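The genes that write, copy, oxidise and read cytosine methylation were examined in the rat line M13 of induced pluripotent stem (iPS) cells, set against a mixture of adult rat cells. The set holds 9 genes: the DNA methyltransferases Dnmt1, Dnmt3a, Dnmt3b and Dnmt3l, the hemimethylation reader Uhrf1, the oxidase Tet1 and the methyl-CpG-binding domain genes Mbd1, Mbd2 and Mbd3. They were chosen by gene name on the array, ignoring the endings that mark predicted and mapped genes. Of the 9 genes 7 had a probe under their name, with 8 probes in all among the 41012 probes of the array. Tet1 and Mbd2 had none, and each is described from 1 probe filed under another name, added after the files had been seen.

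The untreated iPS M13 cells, a single line kept on irradiated feeder fibroblasts from mouse embryos, gave 3 RNA samples, each labelled with Cy3. The adult mixture, named mix1, combined cultured rat bone marrow cells with primary ear fibroblasts in culture and was labelled with Cy5. Each of the 3 arrays, on 1 slide and from 1 scan, held 1 iPS M13 sample and mix1. There was no dye swap, and dye and cell type cannot be told apart. Whether the 3 samples were separate cultures is not stated in the labels, and the p-values therefore cover the spread of these samples alone, which may be technical.

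Across the 3 arrays 53.5% to 60.8% of the probes were well above background in iPS M13 and 52.4% to 61.0% in mix1, and log2 ratios correlated at 0.997 to 0.998 between arrays across probes, a correlation over features and not over samples. Precision is limited by the number of arrays. Of the markers, 5 of 7 measured entries for pluripotent cells were called higher in iPS M13, among them Sox2 (log2 ratio 2.62 ± 0.07, SD, n = 3). Pou5f1 was called with mix1 not well above background on any array, so its ratio is a bound, at least 2.48-fold. Lin28 (0.47 ± 0.16) and Lin28a (-0.15 ± 0.04), filed apart at different places on the build, were not called. Esrrb was too dim in both RNAs on every array. All 14 fibroblast genes and all 9 measured marrow and macrophage genes were called lower. Summed spot brightness of the fibroblast genes was 27302 to 29857 in iPS M13 and 2354483 to 2604307 in mix1, and that of the marrow genes was 5472 to 5876 in iPS M13 and 229661 to 267323 in mix1. In iPS M13, Thy1, Postn, Ptprc, Ctss and Itgam were too dim on every array at the probe used, while 12 of the 14 fibroblast genes were still well above background on all 3. Hybridisation of RNA from the mouse feeders to the rat probes was not tested. In bulk RNA of this kind, fewer cells of a type and less RNA per cell cannot be told apart.

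Methylation of cytosine next to guanine is laid down on unmodified DNA by the de novo enzymes Dnmt3a and Dnmt3b, which the catalytically inactive Dnmt3l assists. After replication the pattern is copied to the new strand by Dnmt1, which Uhrf1 brings to hemimethylated sites, and Tet enzymes oxidise methylated cytosine on the way to its removal. Proteins with a methyl-CpG-binding domain read the mark and recruit repressors, Mbd2 and Mbd3 as alternative subunits of the nucleosome remodelling and deacetylase (NuRD) complex. In mouse, pluripotent cells are known for high levels of the de novo enzymes.

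The probes are shown because each value below is the brightness of 1 oligonucleotide, and log2 ratios trended with probe base composition. Over the tested probes, the log2 ratio of iPS M13 over mix1 changed by -0.44 for every 10 percentage points of G and C. Capitals mark G and C. Of the probes with under 40% G and C the middle 30 bases are given, and of the others all 60. All are read 5′ to 3′ from the array files, with positions on build rn3.
Dnmt3b, chr3:143974644-143974703, plus strand, middle bases: taCaGGtGCtattttttaGaaGGCaGatGa
Dnmt3a, chr6:26881322-26881381, plus strand, middle bases: taaCtaCtGtaCatCCCaaCttCataatGG
Dnmt1, chr8:19929047-19929106, minus strand: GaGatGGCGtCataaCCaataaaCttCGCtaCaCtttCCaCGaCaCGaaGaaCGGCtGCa
Dnmt1, chr8:19952832-19955199, minus strand: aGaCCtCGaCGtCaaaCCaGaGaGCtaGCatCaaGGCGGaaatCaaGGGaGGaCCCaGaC
Uhrf1, unplaced sequence of the build, 25453160 to 25454463, minus strand: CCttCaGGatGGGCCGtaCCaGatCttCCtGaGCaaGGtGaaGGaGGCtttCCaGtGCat
Mbd3, chr7:10829424-10829483, plus strand: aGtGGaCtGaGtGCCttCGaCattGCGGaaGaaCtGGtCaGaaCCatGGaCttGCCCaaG
The further Dnmt1 probe and the Uhrf1 probe cover 2368 and 1304 bases of the build with 60 bases of sequence, so their positions cross a gap. The methyltransferase probes ranged from 35.0% G and C for Dnmt3a, through 36.7% for Dnmt3b and Dnmt3l and 48.3% for the first Dnmt1 probe, to 55.0% for the Dnmt1 probe across the gap. The Uhrf1 probe also held 55.0%, Mbd3 53.3% and Mbd1 46.7%. The Mbd1 probe lies on chr18:71149626-71149685 and the Dnmt3l probe on chr20:10959456-10959515. Exon and intron annotation of this build was not used here.

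The comparison asked how transcript levels in iPS M13 differ from those of the adult cells. Dnmt3b, a de novo DNA methyltransferase, was the 1 member called higher in iPS M13, at 17.2-fold over mix1. Dnmt1, Dnmt3a, Uhrf1 and Mbd1 had positive log2 ratios and Mbd3 a negative one, all under 2-fold. Dnmt3l was too dim for a ratio. A call required a limma adjusted p under 0.05 and a difference of 2-fold or more, and 1 of 6 measured members was called higher and 0 lower, against 18.8% of the 20346 genes tested called higher and 25.4% called lower. By probe, 1 of 7 measured member probes was called higher, against 18.5% of the 24177 probes tested, and 25.1% of those were called lower. The median log2 ratio was 0.45 over the 6 genes and -0.02 over all genes tested.

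Among the de novo methyltransferases, Dnmt3b had a mean spot brightness of 14716, 15745 and 13618 in iPS M13 on replicates 1, 2 and 3, against 454, 511 and 447 in mix1. The lowest iPS M13 value lay far above the highest mix1 value, and mix1 was well above background on all 3 arrays, so both sides of the ratio were measured. After normalization, log2 ratios were 4.20, 4.08 and 4.04, with a mean of 4.10 ± 0.08 (SD, n = 3; adjusted p = 1.54e-06, higher on 3 of 3 arrays). Only 0.277% of the tested probes had a higher ratio. The call held in all 12 other settings tried by probe, at log2 ratios from 3.81 to 4.95. These settings were not all separate checks. Those that changed only which probes or spots were kept left the ratio at 4.10. The processed signals and the authors' value table gave the same ratio, 4.82. Of 8703 other genes with a symbol that were measured in both RNAs on all arrays, those nearest to Dnmt3b over the 3 log2 ratios were Krt6c (4.13 ± 0.03), Slc7a3 (4.09 ± 0.08) and Coro2a (4.11 ± 0.02), at Euclidean distances of 0.103, 0.120 and 0.136. All 3 arrays make the same comparison, so this nearness is mainly likeness in the size of the ratio.

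**Figure D1:**
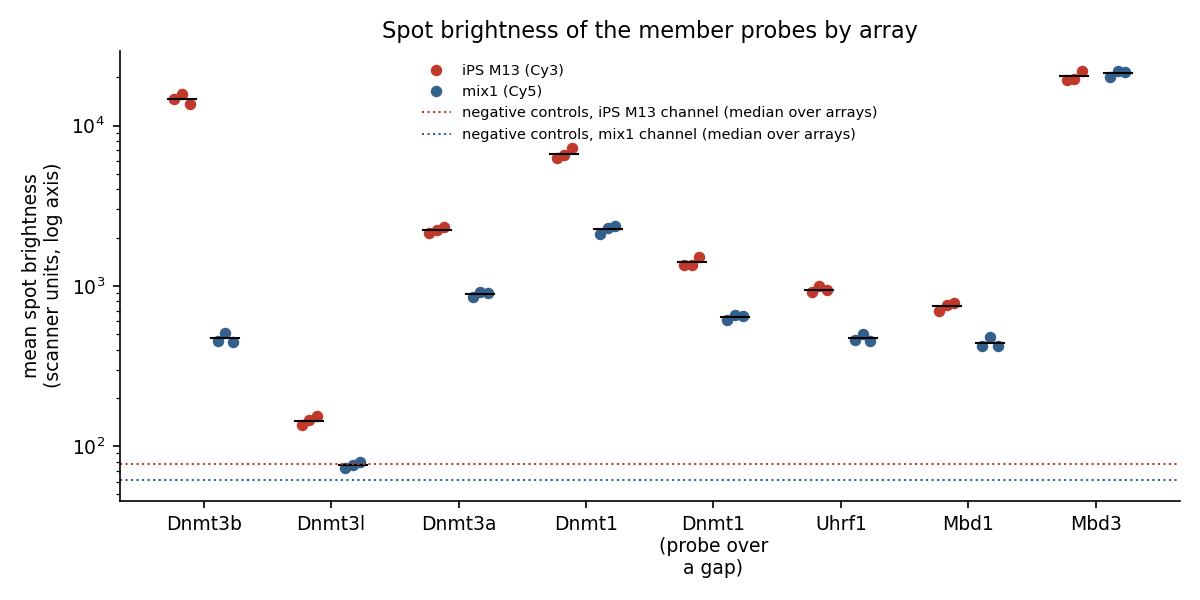
Mean spot brightness (scanner units, log axis) of the 8 member probes on the 3 arrays, iPS M13 left and mix1 right for each probe, with black bars for means and dotted lines for the median of negative control spots in each channel. Dnmt3b spans 13618 to 15745 in iPS M13 and 447 to 511 in mix1, the Mbd3 values of both RNAs overlap, and Dnmt3l lies close to the negative controls.

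Dnmt3a, the other de novo enzyme, had a mean spot brightness of 2147, 2229 and 2323 in iPS M13 and 855, 913 and 896 in mix1. The raw brightness of the groups did not overlap, which is not read here as a result about Dnmt3a. Without within-array normalization the median log2 ratio of all genes tested was already 0.52. The share of all tested probes without overlap was not counted, while 96.0% of the tested probes passed the adjusted p alone. After loess normalization the log2 ratio was 0.55 ± 0.02 (SD, n = 3; adjusted p = 2.34e-05, positive on 3 of 3 arrays), which is under 2-fold. Loess within each array sets the centre of the ratios. Under median centring the Dnmt3a ratio was 1.34 and without within-array normalization 1.28, both past the call, and with the GC trend removed it was 0.18.

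The difference between the de novo enzymes, read on the same arrays, varied less over the settings than the ratio of either enzyme. The log2 ratio of Dnmt3b exceeded that of Dnmt3a by 3.65, 3.51 and 3.52 on the 3 arrays, a mean of 3.56 ± 0.08 (SD, n = 3). Over 11 other settings (all but the filter on both channels, which left both ratios as they were) that difference ranged from 3.51 to 3.83. No p is given for it, since 0.25 is the smallest that exact sign flips of 3 arrays (two-sided) allow. Dnmt3b also exceeded the ratio of the first Dnmt1 probe by 3.36 ± 0.08, with a range from 2.84 to 3.63 over those settings, and the ratio of Mbd3 by 4.83 ± 0.10, from 4.09 to 5.34.

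Dnmt3l, the catalytically inactive partner of the de novo enzymes, was dim. Its spot brightness was 135, 144 and 153 in iPS M13 and 73.1, 76.7 and 79.9 in mix1. Neither RNA was well above background there on any of the arrays, so no ratio is called. The negative control spots, of which there were 153 on each array, had medians of 76.0, 77.4 and 77.1 in the iPS M13 channel, and the iPS M13 value of Dnmt3l exceeded 96.1%, 98.0% and 96.7% of them. In the mix1 channel it exceeded 74.5%, 77.8% and 72.5% of them. By the scanner software's weaker test, significance over the local background, Dnmt3l was positive in iPS M13 on 3 of 3 arrays and in mix1 on 0 of 3.

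**Figure D2:**
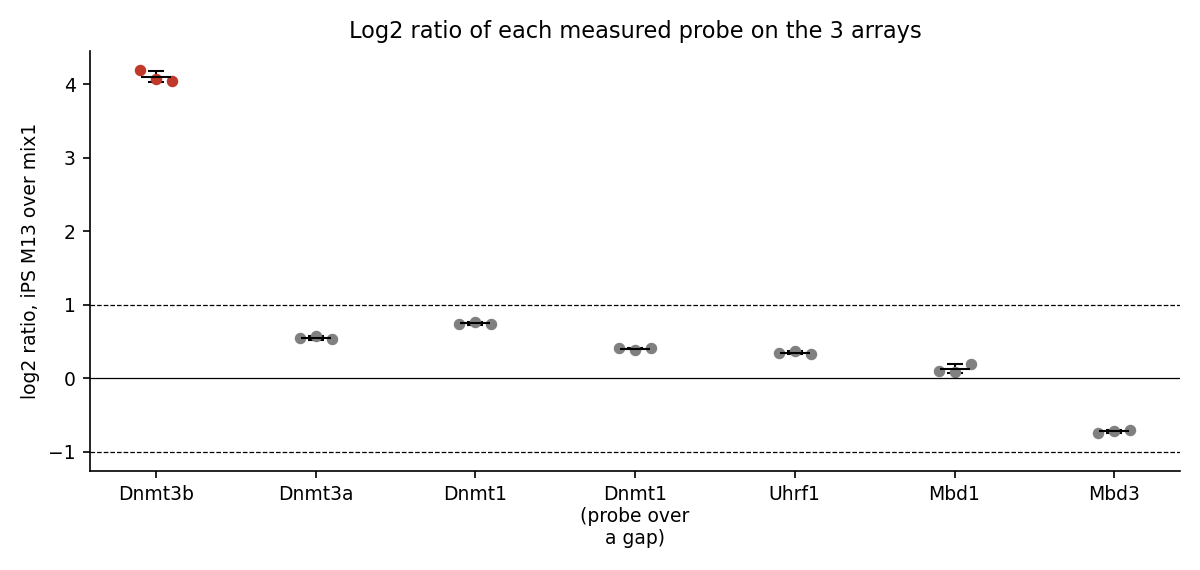
Log2 ratio of iPS M13 over mix1 (vertical axis) for the 7 measured member probes, with a point for each of the 3 arrays, a bar for the mean and whiskers for the SD, and dashed lines at 2-fold. Dnmt3b lies at 4.04 to 4.20, the other probes between the dashed lines, and Mbd3 alone below 0.

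The maintenance methyltransferase Dnmt1 had 2 probes. The brighter one read 6261, 6516 and 7253 in iPS M13 and 2113, 2307 and 2362 in mix1. Its log2 ratio was 0.75 ± 0.02 (SD, n = 3; adjusted p = 8.86e-06). The probe across the gap read 1340, 1354 and 1505 in iPS M13 and 611, 654 and 650 in mix1, with a log2 ratio of 0.40 ± 0.01 (adjusted p = 3.79e-05). Both probes were positive on 3 of 3 arrays and under 2-fold. The first exceeded the probe across the gap by 0.34 ± 0.03 on the log2 scale, and by 0.05 once the GC trend was removed.

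Uhrf1, the protein that brings Dnmt1 to newly replicated DNA, had spot brightness of 914, 991 and 937 in iPS M13 and 458, 502 and 453 in mix1. Raw brightness, before any centring of the ratios, did not overlap between the groups. Its log2 ratio was 0.35 ± 0.02 (SD, n = 3; adjusted p = 8.23e-05), within 0.05 ± 0.03 of the Dnmt1 probe across the gap on the same arrays. Neither Dnmt1 nor Uhrf1 was called under loess. The Dnmt1 probes reached 1.60 and 1.12 under median centring and 1.54 and 1.07 without within-array normalization, where both were called, and the brighter was also called with the scanner software's processed signals and in the authors' value table (1.19 in each). Uhrf1 stayed under 2-fold in all 12 other settings, at 0.34 to 0.98.

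The oxidase Tet1 had no probe under its name. A probe filed as Cxxc6, the older symbol of Tet1, read 259, 310 and 270 in iPS M13 and 102, 134 and 92.0 in mix1. It was well above background in iPS M13 on 3 of 3 arrays and in mix1 on 0 of 3, so the ratio is a bound, at least 1.61-fold higher in iPS M13, taking mix1 on each array at no less than the lowest signal well above background. That lowest signal was 7.35, 4.72 and 7.14 (log2) on replicates 1, 2 and 3, so on replicate 2 the dim mix1 signal itself was used. The bounds for Pou5f1 above and Dppa3 below rest on the same values. The fitted log2 ratio was 0.91 ± 0.27 (SD, n = 3), the widest spread between arrays among the member probes. Tet1 was kept through the iPS M13 side alone, so no p is given and no fitted value is read as a call. Without replicate 2 the fitted value was 1.04 and passed the 2-fold minimum, as it did in 6 of 11 other settings in all, up to 2.48 with the processed signals.

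Of the methyl-CpG readers, Mbd1, which binds methylated promoters, had brightness of 700.2, 759 and 782 in iPS M13 and 421, 482 and 423 in mix1. Its log2 ratio was 0.13 ± 0.06 (SD, n = 3, limma adjusted p = 0.0157), the smallest in size of the measured members under loess, though not in every other setting. Mbd3, a NuRD subunit that binds methylated DNA weakly in mammals, read 19300, 19682 and 21840 in iPS M13 and 20138, 21859 and 21732 in mix1. The brightness of both RNAs overlapped. After loess its log2 ratio was -0.73 ± 0.02 (adjusted p = 1.09e-05, negative on 3 of 3 arrays), under 2-fold, and it moved to -0.01 under median centring and -0.07 without within-array normalization.

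Mbd2, the methyl-binding alternative to Mbd3 in NuRD, was found by its gene ID on a probe filed as LOC680172. That probe read 44408, 42717 and 43388 in iPS M13, against 60303, 63330 and 58278 in mix1, with no overlap in raw brightness. Its log2 ratio was -0.94 ± 0.01 (SD, n = 3; adjusted p = 3.67e-06, negative on 3 of 3 arrays), short of 2-fold, and ranged from -0.95 to -0.42 over 12 other settings. In order of their log2 ratios the probes measured in both RNAs ran Dnmt3b, Dnmt1, Dnmt3a, the Dnmt1 probe across the gap, Uhrf1, Mbd1, Mbd3 and Mbd2. The ratios of the Dnmt1 probe across the gap and Uhrf1 differed by no more than 0.08 on any array, and with the GC trend removed the Dnmt3a minus Uhrf1 difference was -0.69.

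**Figure D3:**
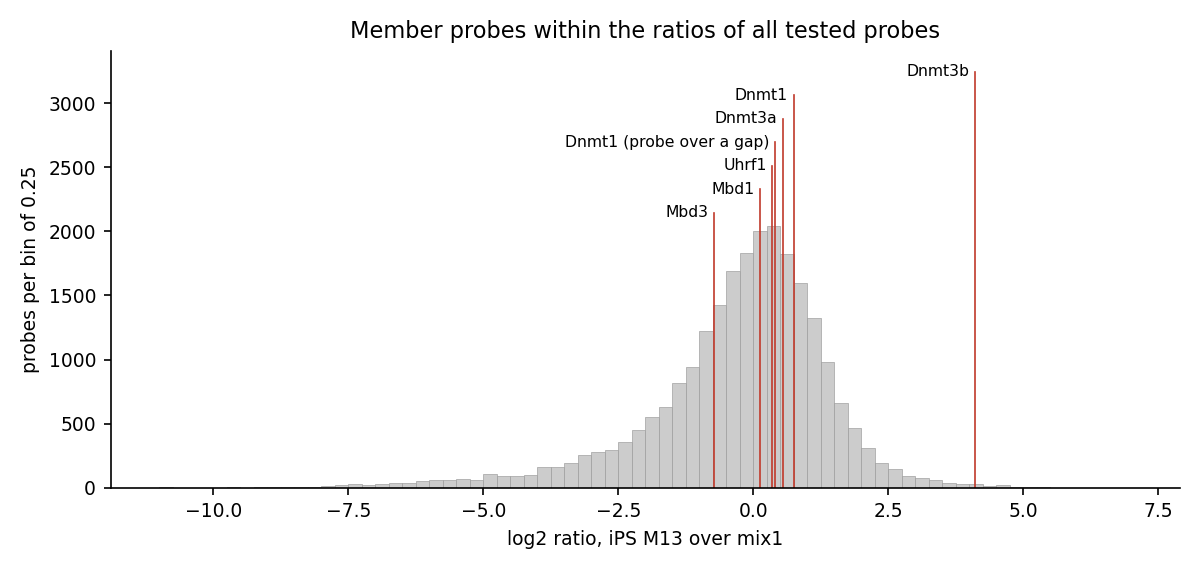
Number of tested probes (vertical axis) by log2 ratio of iPS M13 over mix1 (horizontal axis, bins of 0.25), with red lines at the mean ratio of each measured member probe. Dnmt3b at 4.10 stands in the right tail and the other 6 probes, from -0.73 to 0.75, stand within the main body.

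The scaling of the arrays moved the centre of the ratios, by amounts that differed between genes. The median log2 ratio of all genes tested rose by 0.60 under median centring, by 0.55 without within-array normalization and by 0.31 with the processed signals. The share of called probes that were higher in iPS M13 was 42.5% after loess, 67.8% under median centring, 65.7% without within-array normalization and 56.9% with the processed signals. Relative to the median of the probes tested in each setting, Dnmt3b stood at 3.81 to 4.53, Mbd1 at 0.12 to 0.27 and Mbd3 at -0.81 to -0.28. In each of the 12 settings every measured member kept the sign it had under loess. Settings that changed only which probes or spots were kept left the log2 ratios themselves as they were, while the median they are set against moved slightly.

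**Figure D4:**
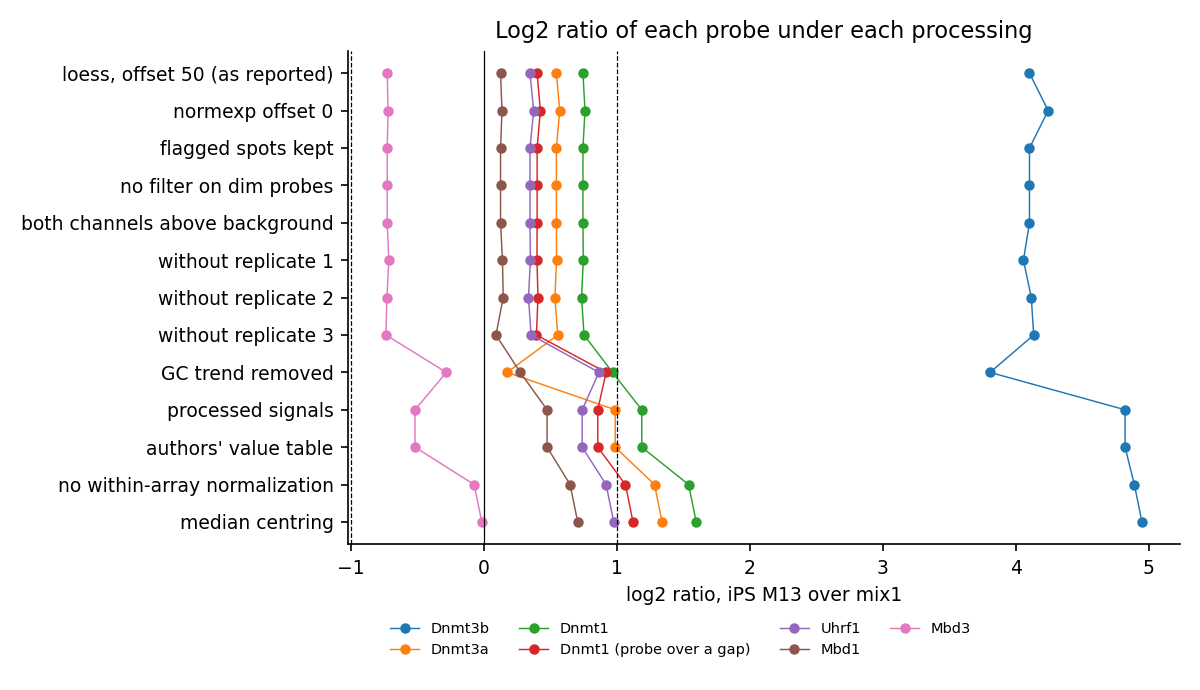
Log2 ratio of iPS M13 over mix1 (horizontal axis) of the 7 measured member probes under the processing as reported (top row) and 12 other settings, with dashed lines at 2-fold. Dnmt3b stays between 3.81 and 4.95, while Dnmt1 and Dnmt3a cross the 2-fold line in the lowest rows and Mbd3 moves to -0.01.

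The partners of these genes were followed through lists of named genes, given by counts with no test of the list. Over 6 lists 59 of 75 genes with a probe were measured, of which 14 (23.7%) were called higher and 4 (6.78%) lower in iPS M13, against 18.8% and 25.4% of all genes tested. Under median centring 33 were called higher and 2 lower, against 36.4% and 17.8% of all genes. Their median log2 ratio was 0.22, against -0.02 for all genes tested.

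The list of other readers and oxidases had 3 of 11 measured genes called higher and 2 lower, with a median of 0.21. It also holds genes that are neither methyl-DNA readers nor oxidases, such as Cxxc4, Cxxc5, Tdg and Trdmt1. Cxxc4, a CXXC-domain protein known as a Wnt signalling inhibitor, was at 3.32 ± 0.31 (SD, n = 3), with mix1 measured on 1 of 3 arrays. Tdg, the glycosylase that removes oxidised methylcytosine, was at 2.21 ± 0.01 (1.44 from its other probe), and Mbd4, a methyl-CpG-binding glycosylase of mismatched bases, was at 1.20 ± 0.04. The zinc finger protein gene Cxxc5 was lower, at -4.71 ± 0.08, as was the methyl-DNA-binding zinc finger gene Zbtb38 (-1.22 ± 0.03, and -0.70 under median centring, where its call ended). Not called were the Uhrf1 paralogue Uhrf2 (0.21 ± 0.14), the oxidase Tet2 (0.43 ± 0.09, mix1 measured on 1 of 3 arrays), the tRNA methyltransferase Trdmt1 (0.61 ± 0.03), Mbd6 (-0.66 ± 0.01), Cxxc1 (-0.07 ± 0.02) and the reader Zbtb33 (-0.04 ± 0.08, adjusted p = 0.377).

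Partners of maintenance methylation had 5 of 13 measured genes called higher and 0 lower, with a median of 0.80. Under median centring 10 were called higher, with a median of 1.58, and 8 with the processed signals. Those called under loess were the histone methyltransferases Suv39h2 (2.02 ± 0.65, mix1 measured on 2 of 3 arrays) and Suv39h1 (1.37 ± 0.03, and 0.70 from another probe), the replication clamp Pcna (1.60 ± 0.02, and 2.39 from another probe), the heterochromatin protein gene Cbx3 (1.13 ± 0.02, with 1.40 from another probe, and 0.54 with the GC trend removed, where its call ended) and the clamp-associated factor Pclaf (1.09 ± 0.01). The other 8 were not called. Among them were the deubiquitinase Usp7 (0.80 ± 0.05), which acts on Dnmt1 and Uhrf1, the DNA ligase Lig1 (0.28 ± 0.02), the heterochromatin protein genes Cbx1 (0.87 ± 0.01) and Cbx5 (0.20 ± 0.01) and the clamp loader subunit Rfc1 (0.58 ± 0.01). The rest were the Dnmt1-associated Dmap1 (0.06 ± 0.02) and the histone methyltransferases Ehmt1 (0.67 ± 0.04) and Ehmt2 (-0.39 ± 0.03), the last being the only negative ratio of the list. Cell division markers, followed beside Dnmt1 and Uhrf1 because maintenance methylation follows replication, had 10 of 15 called higher and 0 lower, with a median of 1.20. Their summed brightness was 407655 to 441830 in iPS M13 and 109619 to 131832 in mix1. The part of cell division in the ratios of Dnmt1, Uhrf1 and Pcna was not tested.

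NuRD partners of Mbd2 and Mbd3 had 1 of 12 measured genes called higher, Cdk2ap1 (1.57 ± 0.01), a small subunit of the complex, and 0 lower. The other 11 were not called and lay between -0.60 and 0.73. The list median was 0.02, and under median centring 6 of 12 were called higher and the median was 0.86. Heterochromatin and imprint guardians had 2 of 10 called higher and 0 lower, and 5 higher under median centring. With both channels required to be above background, 1 of 9 was called higher. Dppa3, which protects maternal methylation in the mouse zygote, was at least 5.18-fold higher, with mix1 not well above background on any array (limma adjusted p = 2.79e-05; the fitted log2 ratio of a further probe was 1.48), and the insulator-binding Ctcf was at 1.24 ± 0.02 (0.87 with the GC trend removed, where its call ended).

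Enzymes of the methyl donor cycle and of the oxidase cofactor had 2 of 11 measured called higher and 2 lower and a median of -0.54. That median turned to 0.27 under median centring, with 5 higher and 1 lower, and to 0.21 without within-array normalization, with 4 higher and 1 lower. Mtrr, which reactivates methionine synthase, was at 1.54 ± 0.02, and Ahcy, which clears the by-product of methyl transfer, at 1.26 ± 0.004. Idh1, whose product is the cofactor of Tet enzymes, was at -2.16 ± 0.02, and Ahcyl1 at -1.11 ± 0.03, a call that ended under the 4 settings without loess on the spot signals (as far up as -0.55). Of 11 genes silenced by promoter methylation in mouse somatic cells only 2 were measured. The homeobox gene Rhox5 (3.84 ± 0.05) was called higher and the other was not called, while the remaining 9 were too dim for a ratio.

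**Figure D5:**
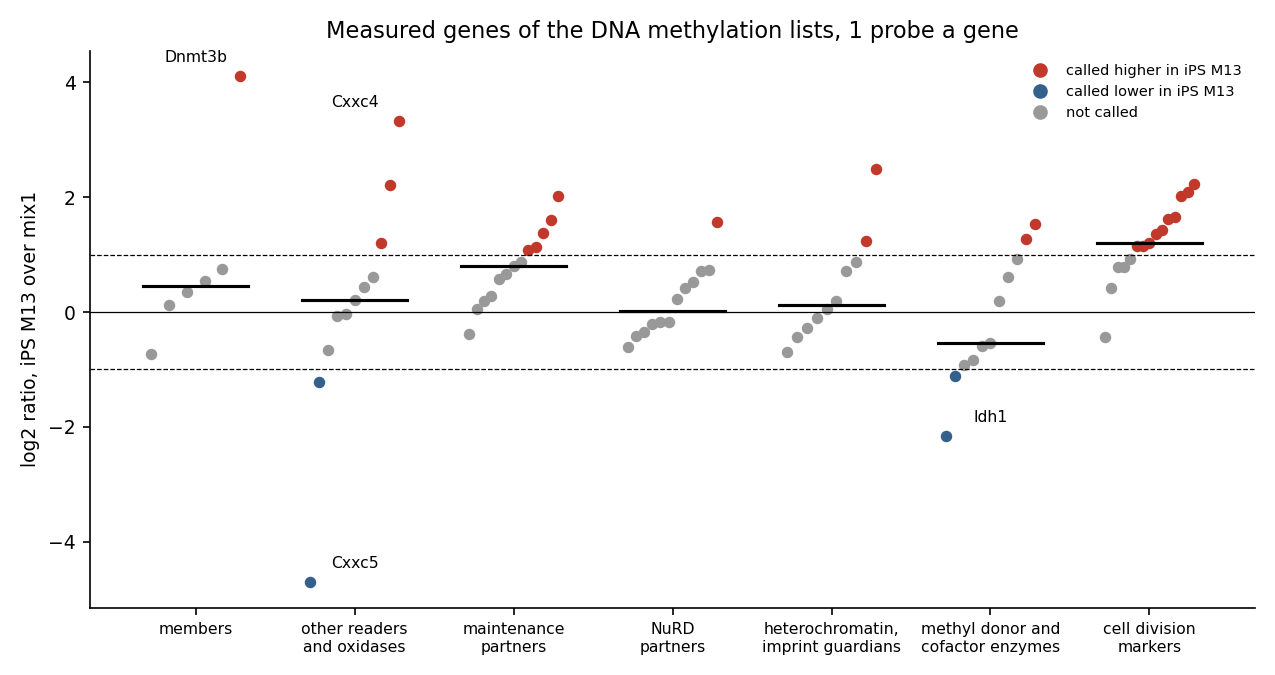
Log2 ratio of iPS M13 over mix1 (vertical axis) of each measured gene by list, 1 probe a gene, with bars at list medians and dashed lines at 2-fold. Among the members Dnmt3b stands alone above 2-fold. Cxxc4 and Cxxc5, neither of them a methyl-DNA reader or oxidase, mark the ends of the list named other readers and oxidases at 3.32 and -4.71. Idh1 marks the low end of the enzymes at -2.16.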

How the data were processed

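RNA of 3 iPS M13 samples (Cy3) and of mix1 (Cy5) was measured on 3 two-colour rat arrays. Spot intensities were deposited as scanner output with no background subtracted, made with Agilent Feature Extraction (version 9.5.3.1), per the file headers. The deposited processed intensities and log10 ratios (Cy5 over Cy3) had passed spatial detrending and dye normalization, per the file headers. The authors also deposited a table taken here as log2 ratios. Its scale and direction are not stated in the sources used here, and were settled by setting each column against that array's log10 ratios: over 41012 probes r was -1.00 and the slope -3.32, so it holds log2 of Cy3 over Cy5. No further centring was seen; the column medians were -0.04, -0.03 and -0.03.

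Mean signals were corrected by normexp (offset 50) and normalized by loess within arrays in limma 3.58.1 (R 4.3.3, data.table version 1.17.8). Outlier spots (192 to 263 on each array) were left out, spots of a probe averaged, and probes kept if well above background in 1 channel on all 3 arrays, as 24177 were. The mean log2 ratio was tested against 0 with lmFit and eBayes and adjusted by Benjamini-Hochberg over all probes, or over all 20346 genes by their brightest probe. The spread of mix1 itself is not covered, as it is a single control RNA. Since 96.0% of probes passed the adjusted p alone, the 2-fold minimum decided most calls. On simulated ratios of 24177 probes, 142 of 150 planted changes clearly past 2-fold were recovered, with 0 false calls. The noise was independent and of the observed spread between arrays, which left little room for a false call past 2-fold. Dye, scaling and changes close to 2-fold were not simulated. Figures used Python 3.11.15, pandas 2.3.3, numpy 2.4.6 and matplotlib 3.10.9.

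Gene names were updated through RefSeq tables (assembly GRCr8): 10735 probes matched by accession, 5577 by symbol, 3730 by synonym and 1217 by gene ID, and 19753 kept the file's name. All members and, of each list, up to 3 called genes at either end were eligible to be named, and for readers and maintenance partners every measured gene. Outside that rule, cell type markers that were dim or not called are also named. The members and lists were chosen with earlier results of these data known.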

Additional observations from a re-analysis of the deposited data

How the results depend on the processing

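No paired analysis was possible because the series has 1 group, with mix1 on every array. The median log2 ratio over the 7 measured member probes, 0.40 under loess, was 1.12 under median centring, 1.07 without within-array normalization, 0.86 with the processed signals and with the authors' value table, 0.87 with the GC trend removed and 0.43 with a normexp offset of 0. Called member genes numbered 3 under median centring and without within-array normalization, and 2 with the processed signals and the authors' value table, against 1. Of all genes 36.4%, 34.4%, 31.1% and 31.1% were called higher in these 4 settings, against 18.8%. Called genes over all 6 lists numbered 35 and 29 in the first 2 of these settings, against 18. In those 4 settings the further calls among members found by name were Dnmt1 in all and Dnmt3a in the first 2. The fitted values of Tet1, with mix1 too dim for a call, were 1.09, 1.03, 2.48 and 2.48 in these settings. Of 315 comparisons of single probes and genes with the reported value, 299 kept their call, 8 gained one, 8 lost one and 0 turned sign. These include settings that changed only which probes or spots were kept and left the ratio as it was. The list genes compared were picked because they were called under loess, so they could only keep or lose a call. A turn of sign in them needed a shift of over 2-fold. All gains were at the Dnmt1 and Dnmt3a probes. Leaving out 1 replicate changed no call of a member found by name. The number of arrays, the single mix1 RNA and the missing dye swap limit the ratios, and Dnmt3l and the mix1 side of Tet1 were too dim for a measured ratio.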
